A study of Mus musculus with 8 samples.

Results

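The genes described here are those of the major histocompatibility complex (MHC) class II pathway that carry it from transcription to the loaded molecule, namely H2-Aa, H2-Ab1, H2-Eb1, Cd74, H2-DMa, H2-DMb1 and Ciita. They were taken by name from a table of 52636 genes. All 7 of them reached the minimum level for testing, a value of 60 in 2 or more libraries, as did 12816 genes in all, and 0 of the 7 reached it in 1 group alone. They were followed across 8 RNA sequencing libraries of sorted splenic T cells from mice.

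Regulatory T cells (Tregs, CD4+ Foxp3+) and conventional T cells (Tconvs, CD4+ Foxp3-) were sorted from 2 genotypes of Foxp3 reporter mice, with CD27+/- mice as the controls and CD11c-Cd70tg;CD27+/- mice as the CD70Tg group. Each combination of subset and genotype has 2 libraries of 200000 sorted cells. In CD70Tg mice the promoter of CD11c, a gene of dendritic cells, drives CD70, the ligand of the costimulatory receptor CD27, which directs expression of the transgene to cells that use this promoter. The sorted T cells carry the transgene as well. Mice of both genotypes had 1 functional Cd27 allele. Their age was 6 to 8 weeks, shortly before CD70Tg mice become ill. Before sorting, the CD4+ cells had been purified with beads and antibodies that deplete other cells, among them antibodies to MHC class II and to CD11c. Cells that carried class II at their surface may have been removed by this step, and how many were lost is not given in the sources used here. For Tconvs, and not for Tregs, an antibody to CD25 was used as well, so comparisons between the subsets are also between 2 purifications. The comparison asks what chronic CD27 engagement does to the transcripts of each T cell subset. As nothing in the labels says whether the 2 libraries of a group came from separate mice, p-values measure the spread between these libraries, which may be technical.

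MHC class II molecules present peptides taken up from outside the cell to CD4+ T cells. In the mouse, H2-Aa and H2-Ab1 encode the alpha and beta chains of I-A, and H2-Eb1 encodes the beta chain of I-E. Cd74 encodes the invariant chain, which holds the new dimer and fills its groove until proteases cut it, and H2-DMa and H2-DMb1 encode the chains of H2-DM, which exchanges the remaining fragment for other peptides. These genes are switched on together by CIITA, a coactivator that does not bind DNA itself but docks on factors bound to the S, X and Y boxes of their promoters. Dendritic cells, B cells and macrophages express them strongly. Interferon gamma induces Ciita in many other cells by way of IRF1. Mouse T cells are classically regarded as making little or no class II of their own, and they can take up class II protein from presenting cells.

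The promoters are shown first, since it is at the X and Y boxes that CIITA acts. The 110 bases before the RefSeq start are given for the 3 members in which letters of these boxes lay close to it, read on the strand of the gene (GRCm38.p6). Capitals mark the letters AG, any 2 bases, AC, any 2 bases and ATG (an X box). They also mark ATTGG or its reverse CCAAT (a Y box) and TGACGTCA (a cAMP response element). These letters were chosen after the promoters had been read.
H2-Eb1, chr17:34305757-34305866 (+): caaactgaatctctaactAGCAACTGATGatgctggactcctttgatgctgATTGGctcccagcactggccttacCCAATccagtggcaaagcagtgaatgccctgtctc
H2-DMb1, chr17:34153081-34153190 (+): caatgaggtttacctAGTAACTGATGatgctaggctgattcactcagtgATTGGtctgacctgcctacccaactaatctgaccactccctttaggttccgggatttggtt
H2-Aa, chr17:34287824-34287933 (-): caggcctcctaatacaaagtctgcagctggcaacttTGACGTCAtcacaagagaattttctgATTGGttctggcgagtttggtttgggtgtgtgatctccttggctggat

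In H2-Eb1 the X box letters began at base -92 and the Y box letters at -59, 33 bases further on. The spacing in H2-DMb1 was 34 bases, with the X box letters at -95 and the Y box letters at -61. In H2-Aa the response element began at -74 and the Y box letters at -48, 26 bases further on, and the letters used here for an X box were not found. The X box letters stood in 3.09% of the 32851 RefSeq windows of 250 bases before to 50 bases after a start, searched on both strands, those of the Y box in 37.4% and those of the response element in 1.79%. An X box with a Y box starting 25 to 40 bases further on the same strand stood in 0.0548% of windows, which are 18 windows of 17 genes. Among these genes were H2-Eb1, H2-DMb1 and 2 class II genes outside the 7, H2-Ob and H2-Eb2. This range of spacing was set after the spacing in the class II genes had been seen. For H2-DMa the table holds 2 starts. Neither had the X box letters, and the one further downstream had Y box letters at -198. H2-Ab1, Cd74 and Ciita had no entry in the table of promoters.

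**Figure D1:**
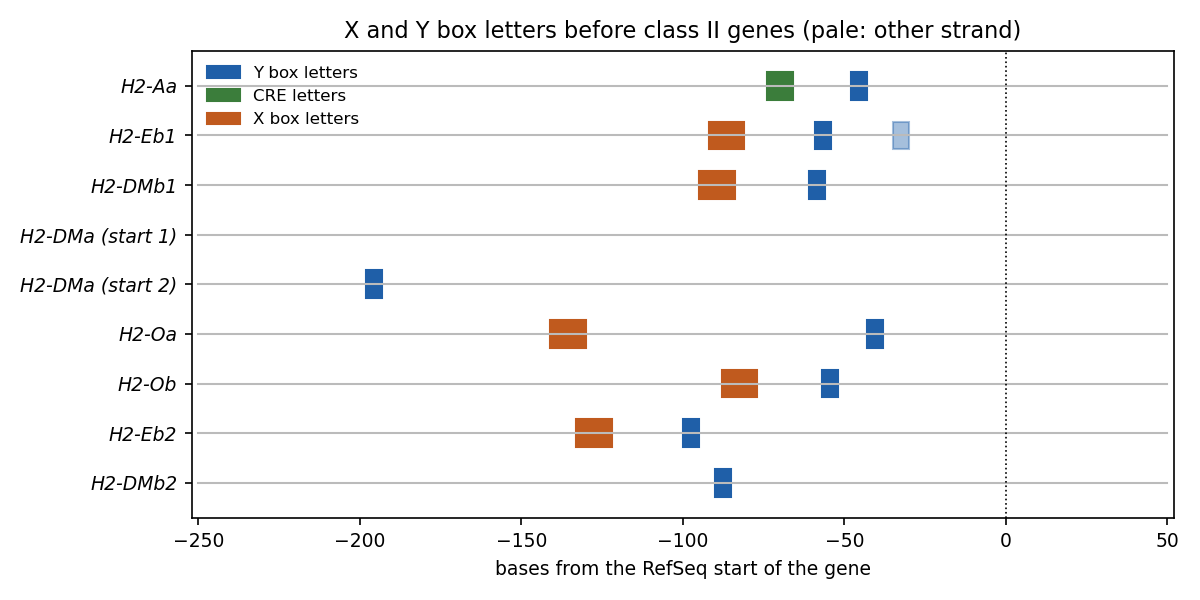
Positions of the letters of the X box (orange), the Y box (blue) and the cAMP response element (green) in the RefSeq windows of 8 class II genes, with bases from the start of the gene on the horizontal axis and 1 line for each window. X and Y box letters 31 to 34 bases apart are seen in H2-Eb1, H2-DMb1, H2-Ob and H2-Eb2, and 98 bases apart in H2-Oa.

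The deposited values are reads per gene scaled to 20 M reads per library (a value of 20 is 1 read per M), and all values below are in this unit unless said otherwise. As low values move in steps of 1 read, the depth could be recovered, at 6.9 to 33.14 M reads on genes in the Tconv libraries and 1.9 to 4.52 M in the Treg libraries. These depths are least certain for the deepest library, CD70Tg Tconv b, and for control Tconv a. A floor was set at the worth of 3 reads. It ranged from 1.8 in CD70Tg Tconv b to 31.3 in CD70Tg Treg a, and covers counting error only. Foxp3 lay between 19769 and 21367 in the Treg libraries and between 1039 and 1497 in the Tconv libraries. Libraries of a group are called a and b in the order of their columns, and the letters were not used to pair libraries between groups. The test was limma's on log2(value + 5), a scale that understates the change of low genes, with p-values adjusted over the 12816 genes. To be called up- or downregulated, a gene needed a log2 fold change over 1 in size as well as an adjusted p-value under 0.05.

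In CD70Tg Tregs, the chains of I-A, the beta chain of I-E and the invariant chain rose together, 3.69- to 3.98-fold over control Tregs. Of the 7 genes 4 were upregulated and 0 downregulated, where 2.53% of all genes tested were upregulated and 1.08% downregulated. With no minimum level 0 of the 7 were upregulated, and 1 with no trend in the prior variance, at the same fold changes (log2 of 1.89 to 1.99 for the 4 genes). The median log2 fold change of the 7 genes was 1.9, against -0.05 for all genes tested. Both CD70Tg libraries lay above both control libraries for all 7 genes, which was the case for 22.5% of the genes tested. In Tconvs, 1 of the 7 was upregulated, Cd74, where 4.07% of all genes tested were upregulated and 0.577% downregulated. At an adjusted p-value under 0.05 whatever the fold, 5 of the 7 were higher in CD70Tg Tregs (3.94% of genes tested) and 2 of the 7 in CD70Tg Tconvs (6.82%). Their median log2 fold change in Tconvs was 0.91, against 0.01 for all genes tested, and 4 of the 7 had both CD70Tg libraries above both control libraries (23.7% of genes tested). The direction of all 7 changes, in both subsets, was the same with median-of-ratios factors, quantile normalization and limma-voom on the recovered reads. In bulk libraries, fewer cells that express a gene and less of its RNA per cell cannot be told apart.

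**Figure D2:**
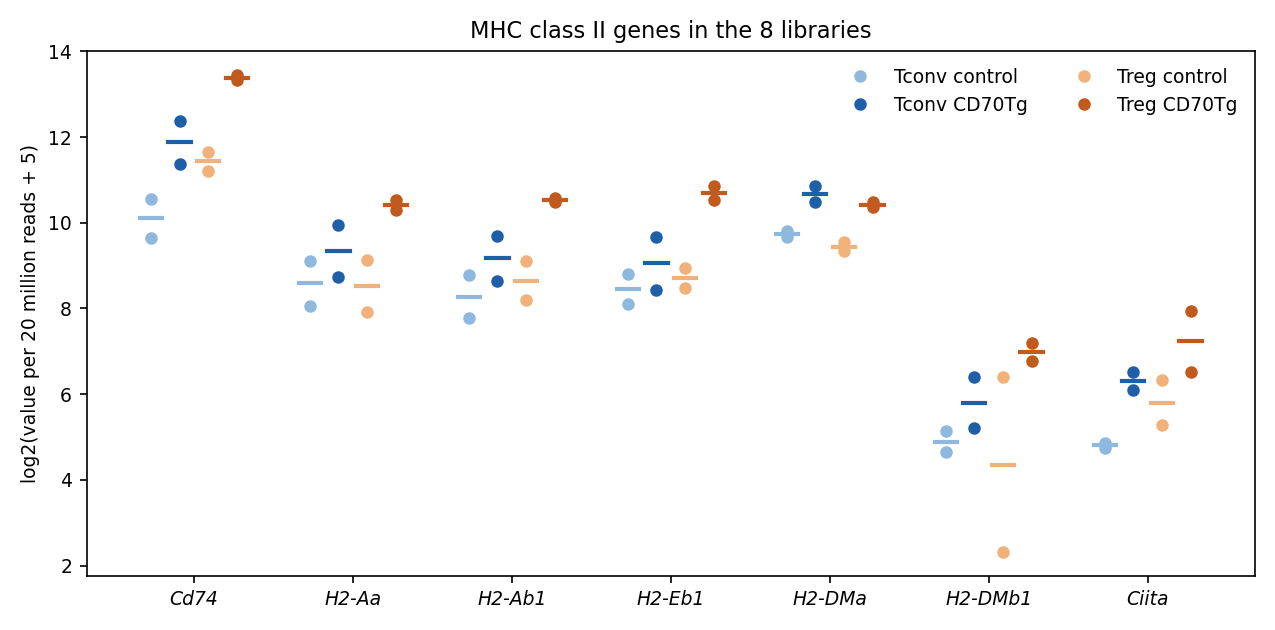
Values of the 7 genes in the 8 libraries on a log2 scale (value per 20 M reads, plus 5), with 1 point for each library and a bar at the mean of each group. Both CD70Tg Treg libraries are the highest of the 8 for Cd74, the 3 chain genes, H2-DMb1 and, narrowly, Ciita, and H2-DMa is highest in CD70Tg Tconvs.

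H2-Aa (chr17:34282744-34287823, GRCm38) encodes the alpha chain of I-A. Its value was 263 and 549 in control Tconvs, 421 and 978 in CD70Tg Tconvs, 238 and 552 in control Tregs, and 1254 and 1485 in CD70Tg Tregs. The CD70Tg Treg libraries stood above the other 6, whose values overlapped between groups. In Tregs its log2 fold change was 1.90 ± 0.38 (SE, adjusted p = 0.0064). In Tconvs it was 0.75 ± 0.38 (adjusted p = 0.32), with a 95% interval from -0.07 to 1.56. The call in Tregs rested on the libraries: without control Treg a the log2 fold change was 1.30 (adjusted p = 0.11) and without CD70Tg Treg b it was 1.77 (adjusted p = 0.053).

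H2-Ab1 (chr17:34257689-34269419), the partner of H2-Aa in I-A, was at 213 and 434 in control Tconvs, 395 and 821 in CD70Tg Tconvs, 287 and 548 in control Tregs, and 1432 and 1528 in CD70Tg Tregs. Again only the CD70Tg Treg libraries stood apart. The log2 fold change was 1.89 ± 0.34 in Tregs (SE, adjusted p = 0.0027) and 0.89 ± 0.34 in Tconvs (adjusted p = 0.14). Without control Treg a the change in Tregs was 1.42 (adjusted p = 0.053). The ratio of H2-Ab1 to H2-Aa stayed between 0.791 and 1.21 over the 8 libraries, while H2-Aa itself ranged from 238 to 1485.

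H2-Eb1 (chr17:34305867-34316674) encodes the beta chain of I-E. It was at 269 and 440 in control Tconvs, 340 and 813 in CD70Tg Tconvs, 350 and 486 in control Tregs, and 1484 and 1849 in CD70Tg Tregs. Its log2 fold change was 1.99 ± 0.31 in Tregs (SE, adjusted p = 0.00079) and 0.61 ± 0.31 in Tconvs (adjusted p = 0.32), within the errors of those of H2-Aa and H2-Ab1. Its call in Tregs was kept whichever library was left out. In Tconvs the direction rested on CD70Tg Tconv b, without which the log2 fold change was -0.02. The gene for its alpha chain is listed only as the pseudogene H2-Ea-ps, at 0 in all 8 libraries.

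Cd74, on chromosome 18, was the member with the highest level per length in every group. Its value was 801 and 1509 in control Tconvs, 2651 and 5290 in CD70Tg Tconvs, 2364 and 3214 in control Tregs, and 10219 and 11239 in CD70Tg Tregs. The CD70Tg libraries stood above the control libraries in both subsets, and the values of CD70Tg Tconvs overlapped those of control Tregs. Cd74 was upregulated in Tconvs, with a log2 fold change of 1.76 ± 0.27 (SE, adjusted p = 0.00035), and in Tregs, with 1.96 ± 0.27 (adjusted p = 0.00027). Both calls were kept whichever library was left out. At the same fold changes, the call in Tconvs was lost with no minimum level (adjusted p = 0.086) and with no trend (adjusted p = 0.056), and that in Tregs with no minimum level (adjusted p = 0.058).

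H2-DMa (chr17:34119541-34139101) encodes the alpha chain of H2-DM. It was at 892 and 802 in control Tconvs, 1438 and 1848 in CD70Tg Tconvs, 748 and 640 in control Tregs, and 1307 and 1420 in CD70Tg Tregs. Its libraries separated by genotype in both subsets, and those of CD70Tg Tregs lay below those of CD70Tg Tconvs. Its log2 fold change of 0.94 ± 0.15 in Tconvs (SE, adjusted p = 0.00053) and 0.97 ± 0.15 in Tregs (adjusted p = 0.00081) passed the threshold on p and fell just short of that on the fold. It passed both without control Tconv a (1.02) or CD70Tg Tconv a (1.12) in Tconvs, and without control Treg a (1.08) or CD70Tg Treg a (1.03) in Tregs. Of the exons of H2-DMa, 10.4% lie over Brd2 on the other strand, and whether the counting used strand is not given in the sources used here.

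H2-DMb1 (chr17:34153072-34160230), the beta chain of H2-DM, was close to the floor. It was at 20 and 30 in control Tconvs, 32 and 79 in CD70Tg Tconvs, 0 and 79 in control Tregs, and 105 and 142 in CD70Tg Tregs, from 0 to 26 reads in a Treg library. A value of 0 in control Treg a allows up to 14.6. The log2 fold change was 2.63 ± 0.85 in Tregs (SE, adjusted p = 0.072) and 0.91 ± 0.85 in Tconvs (adjusted p = 0.65), and it was 0.60 in Tregs without control Treg a and 4.67 without control Treg b (adjusted p = 0.00014). The fitted changes of H2-DMb1 depend on the pseudocount.

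Ciita (chr16:10480059-10528418), the transactivator, had few reads. It was at 22 and 24 in control Tconvs, 64 and 86 in CD70Tg Tconvs, 34 and 75 in control Tregs, and 241 and 87 in CD70Tg Tregs. The libraries did not overlap by genotype in either subset, and the lower CD70Tg Treg library was closer to the controls than to the other one, with 23 reads behind the value of 241 and 16 behind that of 87. Its log2 fold change was 1.5 ± 0.47 in Tconvs (SE, adjusted p = 0.058) and 1.43 ± 0.47 in Tregs (adjusted p = 0.077), so that it passed the test in neither. Among the libraries left out in turn, Ciita passed in Tconvs without any 1 of the 4 Treg libraries (adjusted p from 0.024 to 0.044), and in Tregs without CD70Tg Treg b (2.14, adjusted p = 0.018). In Tregs it was 0.72 without CD70Tg Treg a (adjusted p = 0.52) and 0.91 without control Treg a (adjusted p = 0.5). Dexi lies over 3.5% of its exons on the other strand.

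The count in Tconvs depended on single libraries, and rose from 1 to 5 of the 7 without CD70Tg Tconv a, which left the deepest library alone in its group. There the 3 chain genes and H2-DMa joined Cd74, with log2 fold changes of 1.35 for H2-Aa, 1.42 for H2-Ab1, 1.23 for H2-Eb1 and 1.12 for H2-DMa. It rose to 2 without control Tconv a (H2-DMa), control Tconv b (H2-Ab1, 1.40) or any 1 Treg library (Ciita), and stayed at 1 without CD70Tg Tconv b, where the log2 fold change was 0.14 for H2-Aa, 0.37 for H2-Ab1 and -0.02 for H2-Eb1. Without control Tconv a these were 0.22, 0.39 and 0.26.

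The median difference of the responses, Tregs minus Tconvs, was 0.99 on the log2 scale over the 7 genes, against -0.08 for all genes tested, and 6 of the 7 differences were above 0. By gene, the difference was called for 0 of the 7 by limma and 0 by limma-voom, where 0.882% of all genes tested were called in the first. By limma it had an unadjusted p-value under 0.05 for H2-Eb1 alone, which 10.7% of all genes tested had in either direction. For H2-Eb1 the difference was 1.39 (95% interval from 0.46 to 2.32, adjusted p = 0.19), for H2-Aa 1.15 (0 to 2.3, adjusted p = 0.47) and for H2-Ab1 0.99 (-0.03 to 2.01, adjusted p = 0.49). The difference for Cd74 was 0.19 (-0.62 to 1.01) and that for H2-DMa 0.03 (-0.43 to 0.48). That of Ciita was -0.07 (-1.48 to 1.33) and that of H2-DMb1 1.72 (-0.82 to 4.26). The intervals of the chain genes reach above 2 on the log2 scale, so that the libraries do not show equal responses either. Without CD70Tg Tconv b, H2-Eb1 was called (2.01, adjusted p = 0.021), and without control Treg b, H2-DMb1 was (3.75, adjusted p = 0.024).

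**Figure D3:**
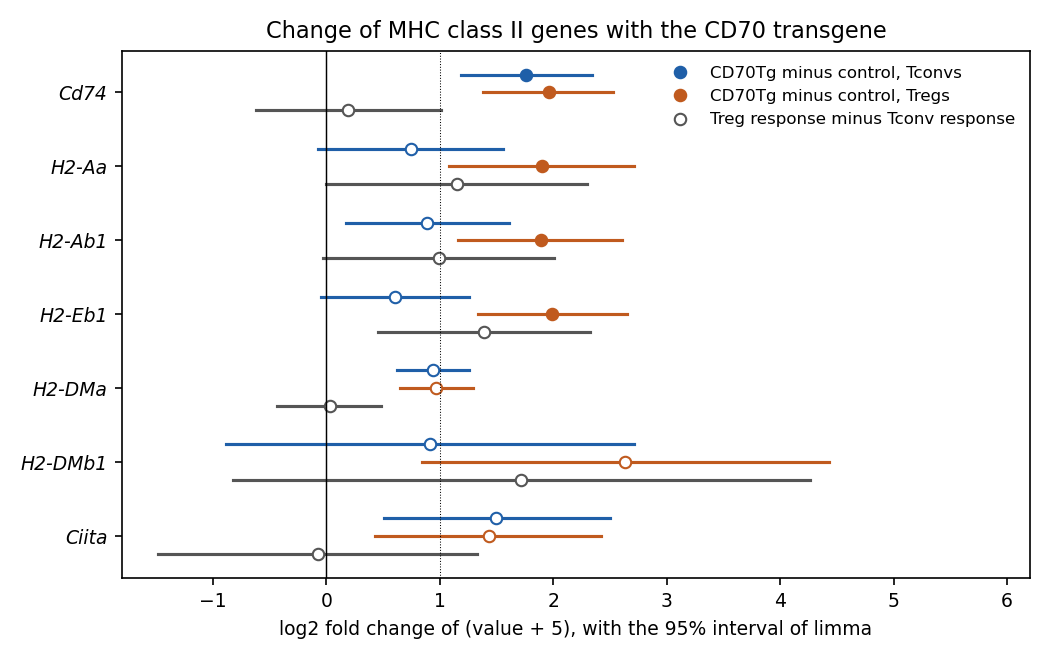
Log2 fold changes of the 7 genes with the CD70 transgene in Tconvs (blue) and Tregs (orange) and the difference between the responses (grey), with the 95% intervals of limma, where filled points are called. The 3 chain genes are called in Tregs and not in Tconvs, Cd74 in both, and none of the differences is called.

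Between the subsets of control mice, Cd74 was the only 1 of the 7 called, higher in Tregs with a log2 fold change of 1.32 ± 0.27 (SE, adjusted p = 9e-04), where 14.7% of all genes tested were higher in Tregs. H2-Aa, at -0.07 ± 0.38, H2-Ab1, at 0.38 ± 0.34, and H2-Eb1, at 0.26 ± 0.31, did not pass (adjusted p from 0.38 to 0.91), and their libraries overlapped between the subsets. Ciita was at 1.00 ± 0.47 (adjusted p = 0.094), H2-DMa at -0.29 ± 0.15 (adjusted p = 0.13) and H2-DMb1 at -0.53 ± 0.85 (adjusted p = 0.64). The count was 0 without control Tconv a, where Cd74 was at 0.87 and under the threshold on the fold. It was 3 without control Treg a, where Ciita, at 1.52 (adjusted p = 0.034), and H2-DMb1, at 1.51 (adjusted p = 0.035), joined Cd74. It was 2 without control Treg b, where H2-DMb1 was lower in Tregs, at -2.56 (adjusted p = 0.0028).

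In CD70Tg mice, 4 of the 7 were higher in Tregs than in Tconvs, where 12.3% of all genes tested were. The log2 difference was 1.08 ± 0.38 for H2-Aa (SE, adjusted p = 0.032), 1.37 ± 0.34 for H2-Ab1 (adjusted p = 0.0043), 1.65 ± 0.31 for H2-Eb1 (adjusted p = 0.00055) and 1.52 ± 0.27 for Cd74 (adjusted p = 0.00035). H2-DMb1 was at 1.19 ± 0.85 (adjusted p = 0.27), Ciita at 0.92 ± 0.47 (adjusted p = 0.12) and H2-DMa at -0.26 ± 0.15 (adjusted p = 0.18). Without CD70Tg Tconv a the count was 2, with H2-Aa at 0.48 (adjusted p = 0.38) and H2-Ab1 at 0.85 (adjusted p = 0.079). H2-Aa was also lost without CD70Tg Treg a (adjusted p = 0.077) or CD70Tg Treg b (adjusted p = 0.14). H2-DMb1 was called without control Treg a (adjusted p = 0.037), and Ciita without CD70Tg Treg b (1.63, adjusted p = 0.016).

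The order of the groups differed between the genes. For H2-Aa the means were 395 ± 222 in control Tregs, 406 ± 202 in control Tconvs, 700 ± 394 in CD70Tg Tconvs and 1370 ± 163 in CD70Tg Tregs (SD, n = 2 each), and only the last stood beyond the spread of its neighbour. For Cd74 they were 1155 ± 501 in control Tconvs, 2789 ± 601 in control Tregs, 3970 ± 1870 in CD70Tg Tconvs and 10729 ± 721 in CD70Tg Tregs (SD, n = 2 each), with control Tregs and CD70Tg Tconvs within the spread of each other. For H2-DMa the order was control Tregs at 694 ± 76.4, control Tconvs at 847 ± 63.6, CD70Tg Tregs at 1364 ± 79.9 and CD70Tg Tconvs at 1643 ± 290 (SD, n = 2 each). Its means thus followed the genotype first. For Ciita the order was that of Cd74, from 23 ± 1.41 in control Tconvs to 54.5 ± 29 in control Tregs, 75 ± 15.6 in CD70Tg Tconvs and 164 ± 109 in CD70Tg Tregs (SD, n = 2 each), where the middle 2 overlapped and the lower CD70Tg Treg library, at 87, came next to the higher CD70Tg Tconv library, at 86.

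Per kilobase of exon, the mean level of Cd74 was 688 in control Tconvs, 2360 in CD70Tg Tconvs, 1660 in control Tregs and 6390 in CD70Tg Tregs. In CD70Tg Tregs H2-Eb1 followed at 857, then H2-Ab1 at 576, H2-DMa at 395, H2-Aa at 361, H2-DMb1 at 73.5 and Ciita at 17.2. In both Tconv groups and in control Tregs the order on this scale differed, in that H2-DMa stood above H2-Ab1, at a mean level of 246 against 126 in control Tconvs. The 2 chains of H2-DM were far apart per length in all groups, with H2-DMb1 at 14.9 where H2-DMa was at 246 in control Tconvs, and at 73.5 where it was at 395 in CD70Tg Tregs.

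The balance between the genes was compared between libraries by ratios of their values, which are not corrected for length. The ratio of Cd74 to H2-Aa was 3.05 and 2.75 in control Tconvs, 6.3 and 5.41 in CD70Tg Tconvs, 9.93 and 5.82 in control Tregs, and 8.15 and 7.57 in CD70Tg Tregs. Control Tconvs were lowest, CD70Tg Tconvs stood above them, and the 2 genotypes overlapped in Tregs. H2-DMa to H2-Aa was 3.39 and 1.46 in control Tconvs, 3.42 and 1.89 in CD70Tg Tconvs, 3.14 and 1.16 in control Tregs, and 1.04 and 0.956 in CD70Tg Tregs. Here CD70Tg Tregs were lowest, and the other 3 groups overlapped. With 2 libraries against 2, an exact permutation test cannot give a two-sided p-value below 0.333, and none was run on these ratios.

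The other genes of the pathway were taken from a list of 31 genes, of which 27 were tested. In Tconvs 3 of them were upregulated and 1 was downregulated, and in Tregs 4 were upregulated and 1 was downregulated, with a median log2 fold change of 0.06 and 0.13. Of all genes tested, 4.07% were upregulated and 0.577% downregulated in Tconvs, and 2.53% and 1.08% in Tregs. Among the further genes of the class II locus, H2-Oa was upregulated in both subsets, 1 of 3 tested in each. H2-Oa, a chain of H2-DO, which inhibits H2-DM, was at 130 in both control Tconv libraries, 277 and 319 in CD70Tg Tconvs, 151 and 132 in control Tregs, and 314 and 321 in CD70Tg Tregs. Its log2 fold change was 1.16 ± 0.24 in Tconvs (SE, adjusted p = 0.0037) and 1.14 ± 0.24 in Tregs (adjusted p = 0.0071). H2-Ob, the other chain of H2-DO, whose promoter holds X and Y box letters that begin 31 bases apart, was at -0.67 ± 0.19 in Tconvs (adjusted p = 0.034, under the threshold on the fold) and -0.38 ± 0.19 in Tregs (adjusted p = 0.25). H2-DMb2, the second gene for the beta chain of H2-DM, was at 54 and 53 in control Tregs, at 136 and 142 in CD70Tg Tregs, and at 18 to 41 in the Tconv libraries. It reached the minimum of 60 in CD70Tg Tregs alone, so no test of it is given. H2-DMb1 and H2-DMb2 are near-identical, so that their reads may be split between them.

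Of the genes that process antigen and the invariant chain (cathepsins, Lgmn and Ifi30), 0 of 7 were called by limma in either subset, with 3 in Tregs and 2 in Tconvs at an unadjusted p-value under 0.05, which 21.6% of all genes tested had in Tregs and 19.1% in Tconvs. Ctss, the protease that makes the last cuts in the invariant chain, was at 0.49 ± 0.11 in Tregs (SE, adjusted p = 0.014) and 0.17 ± 0.11 in Tconvs (adjusted p = 0.51), under the threshold on the fold in both. Whatever the fold, 1 of the 7 (Ctss) passed the threshold on p as higher in Tregs and 1 (Lgmn, -0.64 ± 0.15) as lower in Tconvs, where 3.94% of all genes tested were higher in Tregs and 1.99% lower in Tconvs by that rule. The factors that bind the X and Y boxes (Rfx5, Rfxap, Rfxank, Nfya, Nfyb, Nfyc and Creb1) were called by limma in 0 of 7 cases in each subset, also whatever the fold. At an unadjusted p-value under 0.05 there was 1 in each, Rfx5 higher in Tconvs and Nfya lower in Tregs (19.1% and 21.6% of all genes tested). Their median log2 fold change was -0.09 in Tconvs and 0.13 in Tregs. Cd83, which slows the removal of class II from the surface, was downregulated in both subsets, at 3421 and 3372 in control Tregs against 1484 and 1403 in CD70Tg Tregs (-1.23 ± 0.21, adjusted p = 0.0018) and at 352 and 201 against 93 and 80 in Tconvs (-1.57 ± 0.21, adjusted p = 9.7e-05).

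The route from interferon gamma to Ciita was the largest group of the pathway list. Of its 8 genes 2 were upregulated in Tconvs (4.07% of all genes tested) and 3 in Tregs (2.53%). At an adjusted p-value under 0.05 whatever the fold, 6 were higher and 1 lower in Tconvs (6.82% and 1.99% of all genes tested). In Tregs 4 were higher and 0 lower by that rule (3.94% and 3.46%). Ifng, the cytokine, was at 105 and 72 in control Tconvs and 718 and 2111 in CD70Tg Tconvs (log2 fold change 3.75 ± 0.40, adjusted p = 6.9e-06), and at 64 and 71 in control Tregs and 168 and 300 in CD70Tg Tregs (1.67 ± 0.40, adjusted p = 0.016). Ifngr1, the ligand-binding chain of its receptor, rose by 1.04 ± 0.12 in Tconvs and 1.12 ± 0.12 in Tregs, from 7585 and 8245 to 15913 and 18492 in the latter. Irf1, which acts on the Ciita promoter, was at 0.96 ± 0.15 in Tconvs and 0.83 ± 0.15 in Tregs, past the threshold on p in both and under that on the fold. The difference of the responses, Tregs minus Tconvs, was -0.13 for Irf1 (95% interval from -0.57 to 0.32).

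Cells that present antigen carry large amounts of these transcripts, so the marker genes of such cells were read in the same libraries. The summed value of H2-Aa, H2-Ab1, H2-Eb1 and Cd74 was 1546 to 2932 in control Tconvs, 3807 to 7902 in CD70Tg Tconvs, 3239 to 4800 in control Tregs and 14389 to 16101 in CD70Tg Tregs. The part of carried-over RNA in these values was not tested, and the markers below are given beside them as measured.

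The levels of B cell markers differed widely. Ighm, the heavy chain of IgM, lay between 9945 and 12353 in Tconvs and between 36883 and 49097 in Tregs. Ighd, that of IgD, was at 306 and 333 in control and 492 and 599 in CD70Tg Tregs. Pou2af1, a coactivator in B cells, was at 733 and 459 in control and 199 and 143 in CD70Tg Tconvs. Ms4a1 and Pax5, which mark B cells, summed to 28 to 60 in control Tconvs, 0 to 12 in CD70Tg Tconvs, 25 to 49 in control Tregs and 43 to 50 in CD70Tg Tregs. In CD70Tg Tconv a both were at 0, which allows up to 8.6 for each, while Cd74 was at 2651 and H2-Aa at 421. The 16 B cell markers other than Ighm summed to 899 to 1270 in control Tconvs, 502 to 563 in CD70Tg Tconvs, 966 to 1202 in control Tregs and 1281 to 1448 in CD70Tg Tregs. Without Pou2af1 as well, the remaining 15 summed to 440 to 537, 303 to 420, 849 to 1070 and 1239 to 1388. With and without Pou2af1 the CD70Tg libraries thus lay below the controls in Tconvs, where most of the gap was that 1 gene, and above them in Tregs. Of the 7 B cell markers tested, 0 were upregulated in either subset by limma and 1 was downregulated in both (Pou2af1). At an unadjusted p-value under 0.05, 3 were higher (Cd79a, Ighm and Ighd) and 2 lower (Cd22 and Pou2af1) in CD70Tg Tregs, where 9.36% of all genes tested were higher and 12.3% lower. In CD70Tg Tconvs 0 were higher and 3 lower (Cd79a, Ighd and Pou2af1), where 12.3% of all genes tested were higher and 6.76% lower. Cd74 to Cd79a, a chain of the B cell receptor, was between 14.1 and 240 over the 8 libraries.

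Markers of conventional dendritic cells were read in the same way. The 9 markers other than Cst3 summed to 160 to 274 in control Tconvs, 296 to 485 in CD70Tg Tconvs, 755 to 801 in control Tregs and 775 to 1079 in CD70Tg Tregs. Sirpa made up most of the sum in the Treg libraries, at 641 and 635 in control and 669 and 392 in CD70Tg Tregs. This sum therefore says little of the other markers in Tregs. Zbtb46, a transcription factor of conventional dendritic cells, was at 25 and 27 in control and 209 and 191 in CD70Tg Tregs, and at 9 and 5 in control and 15 and 38 in CD70Tg Tconvs. It reached the minimum of 60 in CD70Tg Tregs alone, so no test of it is given. Of the other 3 that reached it, 1 was upregulated in Tconvs (4.07% of all genes tested). Itgax, which encodes CD11c and whose promoter drives the transgene, was upregulated in Tconvs, from 31 and 57 to 101 and 236 (1.76 ± 0.43, adjusted p = 0.015), and was at 49 and 84 in control and 74 and 104 in CD70Tg Tregs (0.42 ± 0.43, adjusted p = 0.63). The difference of the responses, Tregs minus Tconvs, was not called for Itgax (-1.34, adjusted p = 0.45). Sirpa, a receptor of myeloid cells, was at -0.31 ± 0.30 in Tregs and -0.01 ± 0.30 in Tconvs, and Cst3, a protease inhibitor, at 0.24 ± 0.14 and 0.13 ± 0.14, none of them called. Flt3, with 7 to 32, and Clec9a, with 0 to 22, stayed under the minimum for testing in all libraries. Xcr1, a receptor of cross-presenting dendritic cells, was at 7 and 26 in control and 49 and 56 in CD70Tg Tconvs, and at 10 and 18 in control and 63 and 33 in CD70Tg Tregs, and was not tested either. The part of dendritic cells in the class II values was not tested. H2-Aa to Itgax was lower with the transgene in Tconvs, at 8.48 and 9.63 in control and 4.17 and 4.14 in CD70Tg cells, and higher in Tregs, at 4.86 and 6.57 in control and 16.9 and 14.3 in CD70Tg cells.

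Markers of monocytes and macrophages were mostly higher in Tregs than in Tconvs, with 11 of 14 called higher between the control groups (14.7% of all genes tested) when Mertk is left out, which reached the minimum in control Tregs alone, and they moved in both directions with the transgene. The 17 markers summed to 2221 to 2696 in control Tconvs, 1826 to 2496 in CD70Tg Tconvs, 7219 to 7697 in control Tregs and 5859 to 5936 in CD70Tg Tregs. The sum was thus lower in CD70Tg than in control Tregs, where the class II sum was higher. Of the 14 tested without Mertk, 1 was upregulated in Tregs (Itgam, 1.13 ± 0.26) and 1 in Tconvs (Cd68, 2.02 ± 0.28), where 2.53% and 4.07% of all genes tested were. Over all 15, Mertk included, the median log2 fold change was -0.49 in Tregs and -0.06 in Tconvs, and holding Mertk lowers that in Tregs. At an unadjusted p-value under 0.05, 3 were higher in CD70Tg Tregs (Lyz2, Spi1 and Itgam), where 9.36% of all genes tested were. Csf1r, C1qa, C1qc, Vcam1 and Slc40a1 were lower there, where 12.3% of all genes tested were. Mertk is left out, as its fall was favoured by the minimum. In CD70Tg Tconvs 1 was higher and 2 were lower, where 12.3% and 6.76% of all genes tested were. Lyz2, the lysozyme of myeloid cells, was at 641 and 872 in control and 1181 and 1077 in CD70Tg Tregs (0.59 ± 0.19, adjusted p = 0.072), and Spi1, a transcription factor of myeloid cells and B cells, at 49 and 66 against 157 and 126 (1.23 ± 0.44, adjusted p = 0.11). The difference of the responses, Tregs minus Tconvs, was called for 2 of the 14 (0.882% of all genes tested), with changes in opposite directions. Lyz2 was at 0.59 in Tregs and -0.61 in Tconvs (difference 1.20 ± 0.27, adjusted p = 0.041), and Itgam at 1.13 and -0.95 (difference 2.09 ± 0.36, adjusted p = 0.0087). C1qa, a complement gene of tissue macrophages, was at 675 and 587 in control and 335 and 365 in CD70Tg Tregs. H2-Aa to C1qa was 0.353 and 0.94 in control Tregs, 3.74 and 4.07 in CD70Tg Tregs, 2.37 and 2.94 in control Tconvs, and 4.39 and 6.61 in CD70Tg Tconvs.

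Among the remaining lists, the markers of plasmacytoid dendritic cells without Pacsin1 summed to 64 to 109 in Tconvs and 159 to 243 in Tregs, and 0 of the 2 tested were called by limma in either subset, while Pacsin1 was lower in both at an adjusted p-value of 0.015 in Tconvs and 0.0089 in Tregs, under the threshold on the fold. The 8 neutrophil markers summed to 15 to 72 in all libraries but the CD70Tg Tregs, where they reached 325 and 328, with S100a9 at 95 and 104 there and at 0 to 10 in the other 6. S100a9 was the only one to reach the minimum, in CD70Tg Tregs alone, so no test of it is given. Igkc, a light chain gene of B and plasma cells, was upregulated in both subsets, at 481 and 456 in control and 1996 and 2290 in CD70Tg Tregs, and at 217 and 109 in control and 606 and 973 in CD70Tg Tconvs. Jchain, Mzb1, Sdc1 and Derl3 together stayed at 33 to 79 in the 8 libraries. The 10 T cell genes summed to 128273 to 180520, with 0 of 10 called by limma in either subset and 1 in each lower at an unadjusted p-value under 0.05 (Cd5 in Tconvs, Cd28 in Tregs). Cd28 in Tregs was also lower at an adjusted p-value of 0.022, under the threshold on the fold.

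**Figure D4:**
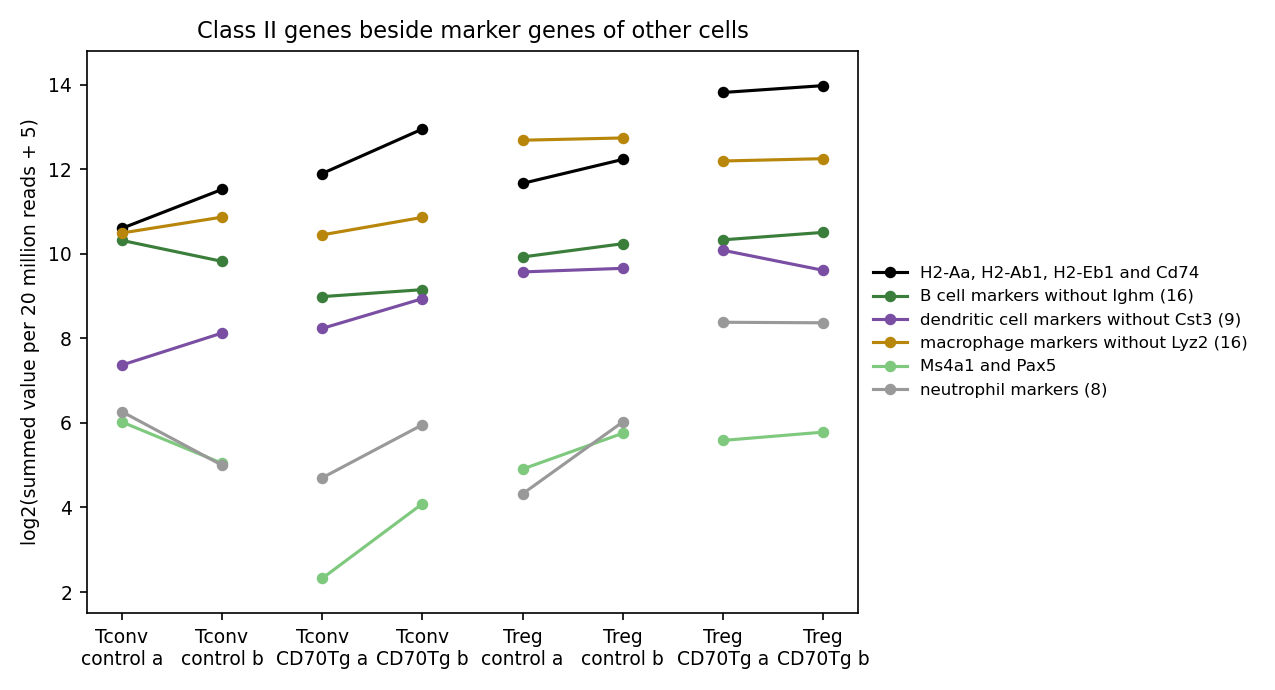
Summed values of the class II genes (black) and of marker lists of other cells in each of the 8 libraries, on a log2 scale (value per 20 M reads, plus 5), with a line joining the 2 libraries of a group. The class II sum is highest in CD70Tg Tregs, where the macrophage sum lies below that of control Tregs, and Ms4a1 and Pax5 together reach no more than 60.

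**Figure D5:**
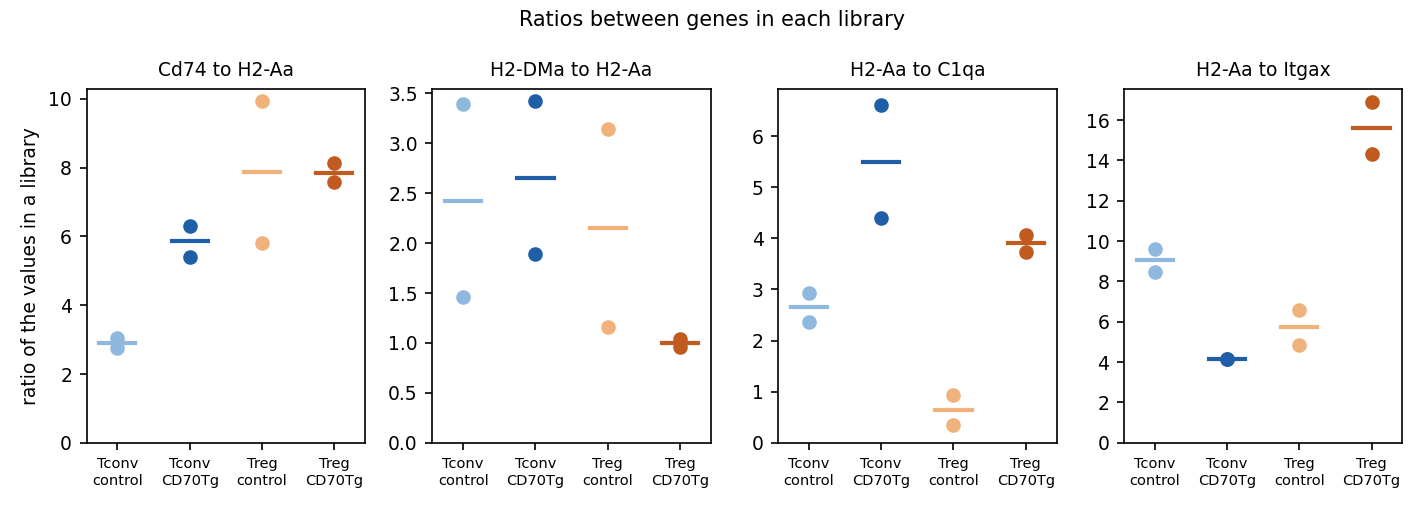
Ratios of the values of 2 genes in each library, with 1 point for each of the 2 libraries of a group and a bar at their mean. Cd74 to H2-Aa is lowest in control Tconvs and H2-DMa to H2-Aa lowest in CD70Tg Tregs, while H2-Aa is higher relative to C1qa with the transgene in both subsets and relative to Itgax in Tregs only.

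The members were compared with all tested genes by the correlation of log2(value + 5) over the 8 libraries with the mean centred profile of the 7, which is a description over 8 libraries of 4 groups that differ in depth. The 10 genes closest to the profile were Mgarp (0.986), H2-Ab1 (0.985), Dhx16 (0.980), H2-Aa (0.974), Fbrs (0.974), 9130023H24Rik (0.969), Fry (0.968), Aplp2 (0.968), Cxcl9 (0.967) and I830127L07Rik (0.965). H2-Ab1 and H2-Aa are themselves part of the profile. Cxcl9, a chemokine induced by interferon gamma, was at 9 and 17 in control Tconvs, 29 and 54 in CD70Tg Tconvs, 20 and 31 in control Tregs, and 95 and 115 in CD70Tg Tregs. It was the only 1 of the 10 to reach the minimum in CD70Tg Tregs alone, where the profile is highest, so that its place among them was favoured by the minimum. H2-Eb1 ranked 15th, Cd74 26th, Ciita 111th, H2-DMb1 156th and H2-DMa 1365th of the 12816 genes. Of the 27 markers of other cells that reached the minimum in more than 1 group, 2 were among the first 500, Igkc (221st) and Spi1 (301st), where 3.9% of all genes tested lie, and their median rank was 4012. Itgax followed at rank 1267 and Bank1, the closest of the B cell list, at 1303, while Pacsin1 was last of them at 12641. The gene nearest to H2-Ab1 was H2-Eb1 (0.979) and the gene nearest to H2-Aa was H2-Ab1 (0.976), out of 12815 other genes. The nearest member to H2-DMa was H2-Aa, at rank 1030 (0.612).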

How the data were processed

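Sorted splenic Tregs and Tconvs of control and CD70Tg mice were compared, with 2 libraries in each of 4 groups. Reads had been trimmed with Trimmomatic 0.36, aligned by STAR 2.5.3 to mm10 and counted per gene with HTSeq 0.9.1 (versions as in the submitters' processing notes). The deposited values are a score that the authors obtained by bringing each library to 20 M reads and rounding every value up. Columns were assigned by their names. Those of the controls are named KO, where the labels give WT and the study CD27+/-. The columns carry running numbers but no replicate numbers, and the letters a and b follow the order of the columns within a group.

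The 4131 rows named after genomic clones were left out, because the steps of their low values are not those of the library they are listed under. For the 97 names on more than one row, the row with the largest total was used. Genes that reached 60 in 2 or more libraries were tested with limma 3.58.1 in R 4.3.3 on log2(value + 5), in 1 model of the 4 group means over all 8 libraries with a trend in the prior variance (12.3 prior degrees of freedom), and Benjamini-Hochberg adjustment over the 12816 genes within each contrast. All adjusted p-values are limma's. The fitting was tested on simulated data. Reads per library were worked out from the steps of the low values, and those behind values of Tconv control a and Tconv CD70Tg b are less certain. Positions are from GENCODE M21 (GRCm38) and promoters from RefSeq.

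The genes and lists were chosen with earlier results of these data known. The rule for naming genes was all 7 members in each comparison, other pathway genes by counts and by value where called or needed, the 10 genes closest to the members' mean profile, and markers of other cells by sums and their leading genes. The alternatives tried were no minimum, a pseudocount of 1 or 20, a mean of at least 60, median-of-ratios factors, quantile normalization, limma-voom on recovered reads, the 4 libraries of a comparison alone, no trend, no threshold on the fold, the clone-named rows kept, and each library left out in turn. Some genes of the lists are not reported here.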

Additional observations from a re-analysis of the deposited data

How the results depend on the processing

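No paired analysis was possible because the columns of the table carry no replicate numbers, so the planned fit with a replicate block was not run. Of 658 fits of a single gene under an alternative, 585 kept their direction and their side of the thresholds, 24 lost a call, 28 gained one and 21 turned direction. Of the 7 genes, the number called in Tconvs (1) was 0 with no minimum value, 0 with no trend, 2 with the 4 libraries alone, 2 with no threshold on the fold and 3 with limma-voom on recovered reads. The number called in Tregs (4) was 0 with no minimum value, where the adjusted p of Cd74 was 0.058, and 1 with no trend. It was 5 with median-of-ratios factors or quantile normalization, which H2-DMa joined. Between the subsets of CD70Tg mice it (4) was 2 with no minimum value and 2 with no trend. It was 3 with median-of-ratios factors or limma-voom, where H2-Aa was lost (adjusted p = 0.053 and 0.095), and 5 with the 4 libraries alone, which H2-DMb1 joined (adjusted p = 0.034). H2-Aa also lost its call in Tregs with limma-voom (adjusted p = 0.096). The causes were not tested. With 1 library left out in turn, the number called was 1 to 5 in Tconvs, 3 to 5 in Tregs, 0 to 1 for the difference of the responses, 0 to 3 between the control subsets and 2 to 5 between the CD70Tg subsets. A lone library left in a group is there taken to vary like those of the other groups. Among the values that turned, the change of H2-Eb1 in Tconvs then ran from -0.02 to 1.23. The difference of the responses ran from -0.30 to 0.69 for Cd74, -0.15 to 0.21 for H2-DMa, -0.32 to 3.75 for H2-DMb1 and -0.78 to 0.64 for Ciita, for which it was also 0.09 with a pseudocount of 20 and 0.42 with quantile normalization. Between the control subsets the values ran from -0.67 to 0.53 for H2-Aa (0.09 with limma-voom), -0.13 to 0.88 for H2-Ab1, -0.09 to 0.61 for H2-Eb1 and -2.56 to 1.51 for H2-DMb1. Depth limits Ciita and H2-DMb1 most, which rest on 0 to 26 reads in each Treg library.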

Other observations

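The class II genes also varied together between the 2 libraries of a group. The sum of H2-Aa, H2-Ab1 and H2-Eb1 was higher in b, the later column, in each group. It was 745 and 1423 in control Tconvs, 1156 and 2612 in CD70Tg Tconvs, 875 and 1586 in control Tregs, and 4170 and 4862 in CD70Tg Tregs. A shift shared by the b libraries therefore cannot be told apart from separate agreements within the groups, and was not tested. In all 4 groups library b was also the one with more Cd74 and more H2-DMb1, while Ciita followed in 3 groups and H2-DMa in 2. Among the tested genes 6.2% had the higher value in that library in all 4 groups and 4.49% in none. Itgax and the macrophage genes Marco, Mertk and Vcam1 followed in 4 groups, C1qa and Lyz2 in 3, Zbtb46 in 2 and Cd79a in 1. The part of these markers' cells in the class II values was not tested. The direction was fixed by the 3 chain genes themselves, so that nothing can be read from their own count.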
